A study of Rattus norvegicus with 16 samples.

Results

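Laminins, the nidogens that crosslink them and the muscle membrane proteins that hold them were described in eye muscle and leg muscle of the rat, at the neuromuscular junction and away from it. The set is 10 genes, chosen by name: the laminin chain genes Lama2, Lama4, Lama5, Lamb2 and Lamc1, the nidogen genes Nid1 and Nid2, and the genes Itga7 (integrin alpha 7), Sspn (sarcospan) and Dag1 (dystroglycan). The array annotation named 14217 genes, of which 10416 passed a filter on low values, and all 10 members passed. They had 24 probe sets, of which 18 passed, and the brightest probe set stood for each gene.

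The study compared the rectus extraocular muscles (EOM), which turn the eye, with the tibialis anterior (TA) of the shin in 4 rats. Regions at the junction (synapse) and regions of fibre away from it (fiber) were cut by laser from 10 µm frozen sections in which acetylcholinesterase staining showed the junctions, about 1000 junctions per muscle and an equal amount of non-synaptic tissue. This gave 4 groups, EOM_fiber, EOM_synapse, TA_fiber and TA_synapse, with 4 arrays each, numbered 15, 25, 27 and 29 in the titles and read here as the rat numbers. The rats had no stated treatment or genetic change, and their strain, sex and age are not given in the sources used here. Each captured region held fibre together with whatever nerve, Schwann cell, vessel or connective tissue lay in the cut area, and a larger number of cells of a type cannot be told apart from more RNA per cell.

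All values are quantile-normalized log2(intensity + 16). On this scale 1 unit is about a doubling of intensity for a bright probe set and more than a doubling for a dim one. Group values are means ± SD (n = 4 arrays) and differences are ± SE. A difference was called at an adjusted p under 0.05 in limma, with the rat as a block and Benjamini-Hochberg adjustment over all 10416 genes. The block removes the level of each of the 4 animals. These p-values therefore rest on the spread left after group and rat levels, estimated over all 4 groups together. Levels of different genes were not compared with each other, since each probe set has its own brightness.

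The labels were checked against genes that define them. The adult acetylcholine receptor subunit gene Chrne lay between 9.92 and 11.55 on the 8 junction arrays and between 4.25 and 6.02 on the 8 fibre arrays. Chrna1, another receptor subunit gene, lay at 11.93 or above on the junction arrays. Away from the junction Chrna1 was higher in EOM_fiber (8.57 to 9.21) than in TA_fiber (4.16 to 6.55). The part of such junctional RNA in the EOM_fiber values was not tested. Myh13, the extraocular myosin, lay at 13.43 or above on every EOM array and at 6.26 or below on every TA array. Hoxa9 lay at 8.87 or above on every TA array and at 5.36 or below on every EOM array. Before normalization, arrays of the same group correlated at 0.867 to 0.949 across probe sets. Median intensity ran from 33.43 to 57.04 with the scaled mean at 150.06 to 150.08, and the highest medians were on EOM_fiber 15 (57.04), TA_synapse 27 (53.2) and TA_fiber 25 (51.51).

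Laminins are trimers of an alpha, a beta and a gamma chain, many of them cross-shaped, that form part of the basal lamina around every muscle fibre. The alpha 2 chain, with a beta chain and gamma 1, makes the main laminin of the fibre surface, and its loss causes congenital muscular dystrophy. In the synaptic cleft the beta 2 chain takes the place of beta 1 and pairs with alpha 2, alpha 4 or alpha 5. Nidogens bind the gamma 1 chain to type IV collagen. Dystroglycan and integrin alpha 7 beta 1 are the laminin receptors of the fibre membrane, and sarcospan is a small membrane protein of the dystrophin and dystroglycan complex.

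The stretches of genome upstream of Lama2, Lama4, Lamc1 and Nid1 are shown because these 4 genes were higher at the junction than in fibre in both muscles, as described further on. RefSeq promoter sequences of assembly GRCr8 were matched for 6 of the 10 members (also Lama5 and Sspn). Each sequence is the 250 bases just before the annotated start, 5′ to 3′ on the gene's strand. Capitals mark an N-box (CCGGAA, a core of ETS factor sites known from junctional genes) or an E-box (CANNTG, the core bound by myogenic helix-loop-helix factors), both searched on both strands.
Lama2, chr1:19491896-19492145, + strand: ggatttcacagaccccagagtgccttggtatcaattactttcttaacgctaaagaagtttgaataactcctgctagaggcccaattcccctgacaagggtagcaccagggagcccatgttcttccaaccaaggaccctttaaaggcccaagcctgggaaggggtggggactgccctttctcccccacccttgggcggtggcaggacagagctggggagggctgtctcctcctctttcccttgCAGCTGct
Lama4, chr20:43946648-43946897, + strand: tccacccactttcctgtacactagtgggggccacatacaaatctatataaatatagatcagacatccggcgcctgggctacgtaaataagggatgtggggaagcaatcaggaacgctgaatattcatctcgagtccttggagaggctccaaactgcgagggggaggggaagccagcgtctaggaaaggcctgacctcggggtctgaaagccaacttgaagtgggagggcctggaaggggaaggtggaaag
Lamc1, chr13:68051987-68052236, − strand: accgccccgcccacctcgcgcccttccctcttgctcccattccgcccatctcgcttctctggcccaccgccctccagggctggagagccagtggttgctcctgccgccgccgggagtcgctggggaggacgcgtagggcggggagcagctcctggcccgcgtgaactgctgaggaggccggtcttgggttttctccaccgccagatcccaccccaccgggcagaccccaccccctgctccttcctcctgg
Nid1, chr17:93069036-93069285, + strand: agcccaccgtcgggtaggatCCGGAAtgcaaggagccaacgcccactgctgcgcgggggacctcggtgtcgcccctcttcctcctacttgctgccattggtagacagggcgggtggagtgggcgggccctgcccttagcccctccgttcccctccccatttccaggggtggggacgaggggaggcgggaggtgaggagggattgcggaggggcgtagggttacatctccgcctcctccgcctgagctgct
Nid1 held the only N-box among the 6 members, with its first base at position -230, while 4218 of 33469 rat promoters of this length (12.6%) held at least 1. Lama2 held an E-box, CAGCTG, whose first base lay at position -8. E-boxes were present in 3 of the 6 members (Lama2, Lama5 and Sspn) and in 65.5% of all promoters. The GC box GGGCGG, searched on both strands but not marked by capitals, was present in 4 of 6 (Lama2, Lama5, Lamc1 and Nid1) and in 30.5% of all promoters. The Lama4 stretch held none of the 3 motifs in this window. A match is a run of letters and not a measured site.

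Junction regions had more mRNA of most matrix members than fibre regions of the same muscle. In TA, 6 of the 10 members were called higher at the junction (Lama2, Lama4, Lamb2, Lamc1, Nid1 and Nid2) and 0 lower, where 10.2% of all genes tested were called, 6.7% higher and 3.53% lower. In EOM, 5 were called higher (the same but for Lamb2) and 0 lower, against 10.1% of all genes, 5.62% higher and 4.51% lower. At an unadjusted p under 0.05 the limma counts were 7 higher and 0 lower in TA, and 6 higher and 2 lower (Itga7 and Sspn) in EOM. The median member difference was 1.11 in TA and 0.88 in EOM, while the median over all genes was -0.01 and -0.04. The 3 receptor genes Itga7, Sspn and Dag1 were not called in either muscle. The EOM and TA comparisons used separate arrays from the same 4 rats.

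**Figure D1:**
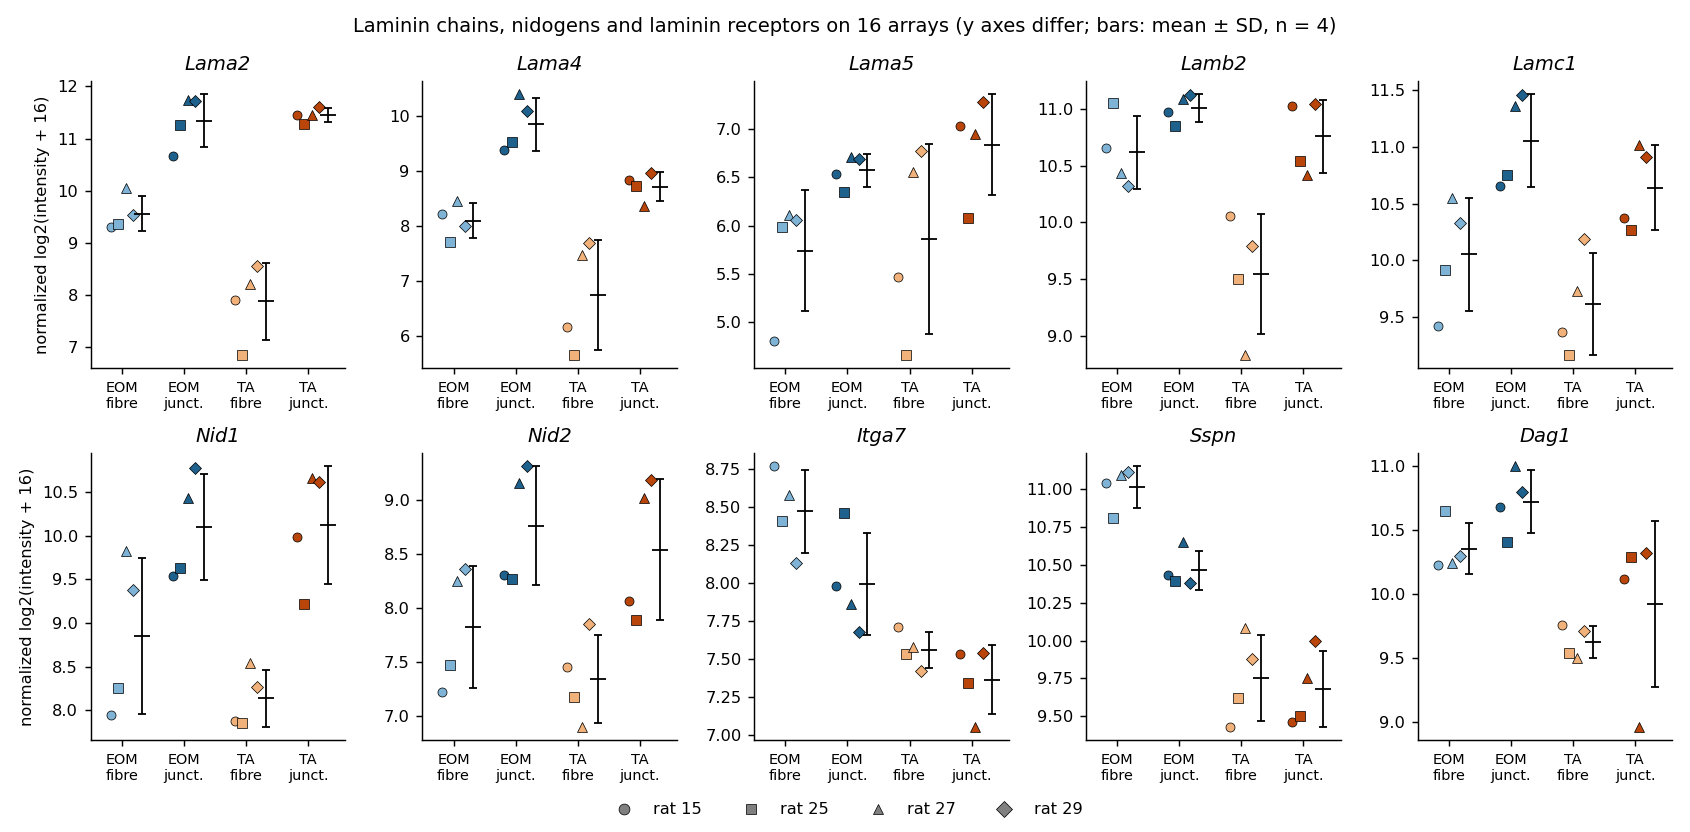
Normalized log2(intensity + 16) of the 10 members on the 16 arrays, 1 panel per gene with its own y axis; point shapes are the 4 rats and the black bars at the side of each group are mean ± SD (n = 4). Lama2 lay at 6.85 to 8.56 in TA_fiber while both junction groups lay between 10.66 and 11.74, and Sspn lay at 10.38 or above on all EOM arrays and at 10.08 or below on all TA arrays.

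Lama2, the alpha chain of the main muscle laminin, had the largest member difference between junction and fibre. In TA its values on rats 15, 25, 27 and 29 were 7.91, 6.85, 8.22 and 8.56 in fibre and 11.45, 11.28, 11.46 and 11.60 at the junction. In EOM they were 9.30, 9.36, 10.05 and 9.54 in fibre and 10.66, 11.26, 11.74 and 11.72 at the junction. Thus TA_fiber was low and variable, EOM_fiber intermediate, and both junction groups high and overlapping. The junction difference was 3.56 ± 0.27 in TA (11.8-fold, adjusted p = 1.05e-06) and 1.78 ± 0.27 in EOM (3.44-fold, adjusted p = 0.000824), in 4 of 4 rats each. Between the fibre groups EOM exceeded TA by 1.68 ± 0.27 (3.21-fold, adjusted p = 0.000825), with no overlap. At the junction the muscles differed by -0.10 ± 0.27 (adjusted p = 0.842, 95% interval -0.67 to 0.47), with 2 rats on each side of 0. The order of the means was TA_synapse (11.45 ± 0.13), EOM_synapse (11.35 ± 0.51), EOM_fiber (9.56 ± 0.34) and TA_fiber (7.88 ± 0.74), and only the first 2 overlapped. The 3 called differences between groups were also called under all 34 alternatives run for each.

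The junction difference of Lama2 was itself larger in TA than in EOM. The difference of differences was -1.78 ± 0.38 (95% interval -2.59 to -0.98, adjusted p = 0.0407), and it ran from -2.53 to -0.86 in the 4 rats. It was the only member called in this contrast, in which 0.922% of all genes were called (0.662% lower). The call lay close to the threshold. It was lost (adjusted p = 0.0523 to 0.103) on leaving out any 1 of 12 arrays: EOM_fiber 15, 25 or 27, TA_fiber 15 or 27, any EOM_synapse array, or TA_synapse 15, 25 or 29. It was lost without any 1 rat (adjusted p = 0.0925 to 0.182) and without the rat block (adjusted p = 0.1). Its value over 33 alternatives stayed between -2.08 and -1.48, with adjusted p from 0.00226 to 0.182.

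Lama4 encodes the alpha 4 chain, found in laminins of vessels, nerve sheath and the synaptic cleft. In TA it stood at 6.16, 5.64, 7.47 and 7.68 in fibre and at 8.82, 8.71, 8.35 and 8.95 at the junction. In EOM it stood at 8.21, 7.70, 8.44 and 8.0 in fibre and at 9.38, 9.51, 10.39 and 10.08 at the junction. EOM was the higher muscle in both regions, and in neither muscle did junction and fibre overlap. The junction difference was 1.97 ± 0.33 in TA (3.92-fold, adjusted p = 0.00141) and 1.76 ± 0.33 in EOM (3.38-fold, adjusted p = 0.004), and both calls held under all 34 alternatives. EOM exceeded TA by 1.35 ± 0.33 in fibre (2.55-fold, adjusted p = 0.0127) and by 1.14 ± 0.33 at the junction (2.2-fold, adjusted p = 0.0293). The fibre call was lost without TA_fiber 15 (adjusted p = 0.0508), without rat 15 (0.0975) and without rat 25 (0.0669), over a range of 0.00125 to 0.0975. It was also lost without the 3 arrays of highest median (0.89, adjusted p = 0.0562), a fall of more than 1.5 times. The junction call ended when any 1 of EOM_synapse 25, 27 and 29 and TA_synapse 27 and 29 was left out (adjusted p = 0.0589 to 0.109), without rat 27 (0.167) or 29 (0.0797) and without the rat block (0.0547). The order of the means was EOM_synapse (9.84 ± 0.48), TA_synapse (8.71 ± 0.26), EOM_fiber (8.09 ± 0.31) and TA_fiber (6.74 ± 0.996), and only the middle 2 overlapped.

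Lama5, the alpha 5 chain of synaptic and vascular laminin, was called in no contrast. The EOM values were 4.81, 5.99, 6.11 and 6.06 in fibre and 6.53, 6.35, 6.71 and 6.69 at the junction. The TA values were 5.47, 4.66, 6.55 and 6.77 in fibre and 7.03, 6.08, 6.95 and 7.28 at the junction. Every rat was higher at the junction in both muscles, and in EOM the groups did not overlap. The differences were 0.97 ± 0.34 in TA (adjusted p = 0.0878) and 0.82 ± 0.34 in EOM (adjusted p = 0.141), and the EOM difference was 1.14 and called without EOM_fiber 25 (adjusted p = 0.046). Its other probe set past the filter differed by -0.17 ± 0.25 in TA and -0.38 ± 0.25 in EOM (adjusted p = 0.764 and 0.413 over 13647 probe sets), so the direction is not settled by this array.

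Lamb2 encodes beta 2, the chain named for its place in the synaptic cleft. In TA it stood at 10.06, 9.50, 8.83 and 9.79 in fibre and at 11.03, 10.54, 10.42 and 11.04 at the junction, without overlap. In EOM it stood at 10.66, 11.05, 10.44 and 10.32 in fibre and at 10.97, 10.85, 11.09 and 11.12 at the junction, where the groups overlapped and rat 25 was higher in fibre. The junction difference was 1.21 ± 0.24 in TA (2.32-fold, adjusted p = 0.00527, called under all 34 alternatives) and 0.39 ± 0.24 in EOM (adjusted p = 0.345, 95% interval -0.13 to 0.91). The difference of differences was -0.82 ± 0.34, negative in 4 of 4 rats, with an adjusted p of 0.387, so a weaker junction difference in EOM was not shown. In fibre EOM exceeded TA by 1.07 ± 0.24 (2.1-fold, adjusted p = 0.00859), and at the junction by 0.25 ± 0.24 (adjusted p = 0.536). The fibre call was lost without rat 25 (0.91, adjusted p = 0.0541), without rat 27 (0.89, adjusted p = 0.0597) and with the arrays centred on their medians (0.85, adjusted p = 0.0957), over a range of 0.000693 to 0.0957.

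Lamc1 encodes gamma 1, the chain shared by nearly all muscle laminins and the docking site of nidogen. The TA values were 9.37, 9.16, 9.73 and 10.19 in fibre and 10.37, 10.27, 11.02 and 10.91 at the junction. The EOM values were 9.42, 9.91, 10.55 and 10.33 in fibre and 10.66, 10.75, 11.36 and 11.46 at the junction. Both muscles showed a step of about the same size, with no overlap of junction and fibre. The difference was 1.03 ± 0.18 in TA (2.04-fold, adjusted p = 0.00205) and 1.004 ± 0.179 in EOM (2.01-fold, adjusted p = 0.00309). The difference of differences was -0.03 ± 0.25 (95% interval -0.57 to 0.52). EOM was above TA in 4 of 4 rats in fibre (0.44 ± 0.18) and at the junction (0.42 ± 0.18), with adjusted p of 0.114 and 0.134. Another probe set of the gene differed by 0.46 ± 0.45 in TA and 0.32 ± 0.45 in EOM (adjusted p = 0.619 and 0.731). This probe set was dim, with intensities of 4.27 to 114, and lay above the array median on 10 of the 16 arrays. The brightest probe set ran from 528 to 2450. With the mean of the probe sets in place of the brightest the calls were lost (adjusted p = 0.0962 in TA and 0.138 in EOM).

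Nid1 and Nid2, the nidogen genes, were also higher at the junction. In TA, Nid1 stood at 7.88, 7.85, 8.54 and 8.27 in fibre and at 9.98, 9.22, 10.66 and 10.62 at the junction. In EOM, Nid1 stood at 7.95, 8.26, 9.83 and 9.38 in fibre and at 9.54, 9.63, 10.43 and 10.78 at the junction, where EOM_fiber 27 lay above 2 junction arrays of other rats. The difference of Nid1 was 1.98 ± 0.24 in TA (3.96-fold, adjusted p = 9.84e-05) and 1.24 ± 0.24 in EOM (2.36-fold, adjusted p = 0.00506), in 4 of 4 rats each. The EOM call was lost without the rat block (adjusted p = 0.082). A second probe set of Nid1 gave -0.04 ± 0.36 in TA and -0.64 ± 0.36 in EOM (adjusted p = 0.963 and 0.324), so the probe sets of this gene disagree. With their mean the EOM difference was 0.30 and not called (adjusted p = 0.492), while the TA call held under all 34 alternatives, the difference lying between 0.97 and 2.20.

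Nid2 was higher at both junctions as well. In TA it stood at 7.45, 7.17, 6.89 and 7.85 in fibre and at 8.06, 7.89, 9.02 and 9.18 at the junction. In EOM it stood at 7.22, 7.47, 8.25 and 8.36 in fibre and at 8.30, 8.27, 9.16 and 9.31 at the junction. Rats 27 and 29 were high in both EOM regions, so the EOM ranges overlapped although every rat was higher at its own junction, by 0.80 to 1.08. The difference was 1.20 ± 0.24 in TA (2.29-fold, adjusted p = 0.0062) and 0.93 ± 0.24 in EOM (1.91-fold, adjusted p = 0.0269). The TA call was lost without rat 29 (adjusted p = 0.0589). The EOM call was lost without EOM_fiber 15, 25 or 29 or any EOM_synapse array (adjusted p = 0.0552 to 0.0905), without rat 15, 25 or 29 (0.081 to 0.121) and without the rat block (0.129), over a range of 0.00711 to 0.129. Neither nidogen was called between muscles: Nid1 differed by 0.72 ± 0.24 in fibre (adjusted p = 0.057) and -0.03 ± 0.24 at the junction (0.961), and Nid2 by 0.49 ± 0.24 and 0.22 ± 0.24 (0.205 and 0.596). The Nid1 fibre difference was called without EOM_fiber 15 (0.92, limma adjusted p = 0.0224), without rat 15 (0.0433) and without the 3 arrays of highest median (0.0186). It was also called as deposited (0.0264), with a pseudocount of 64 (0.027), with a trended, robust prior (0.0193) and with stricter filters (0.0401 and 0.0446). The other alternatives did not call it. The array also holds 4 probe sets annotated to Nid2 pseudogenes, which were not counted as Nid2.

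**Figure D2:**
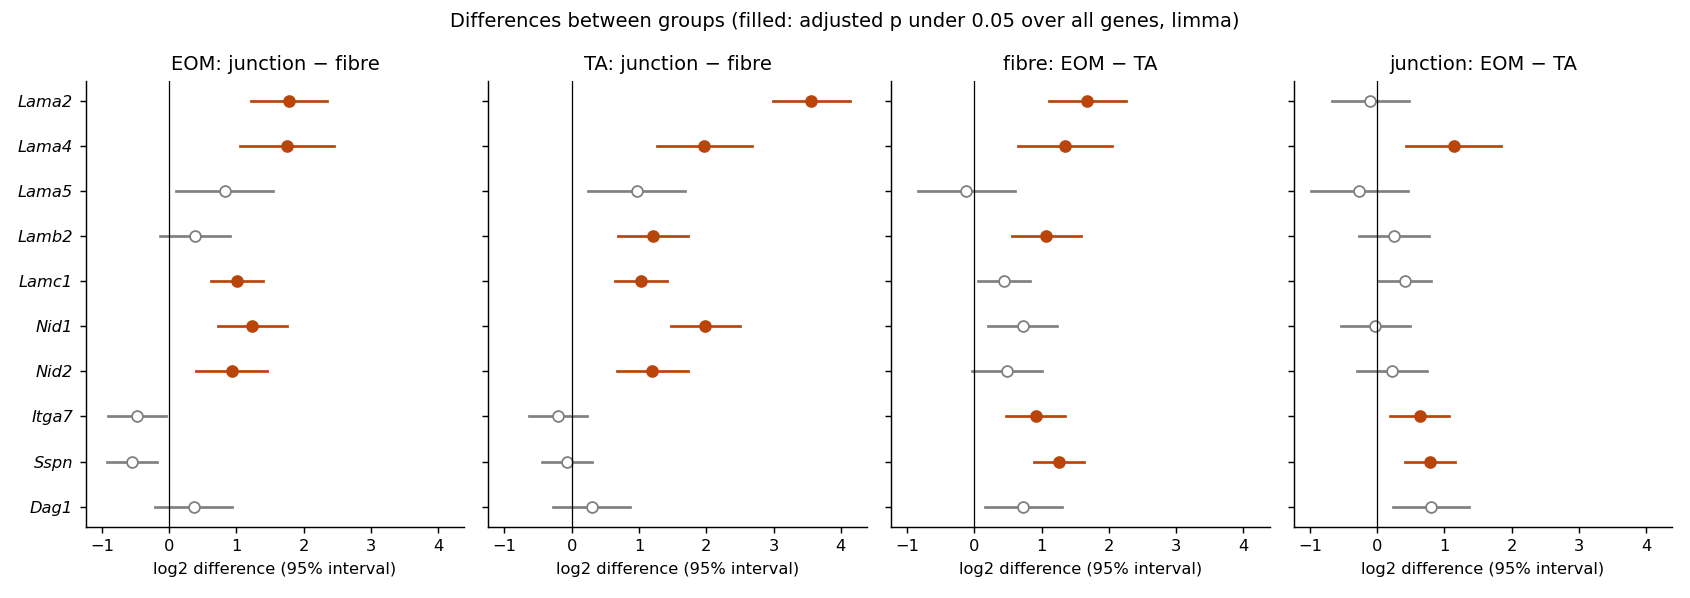
Differences of the 10 members in the 4 contrasts of 2 groups, in log2 units with 95% intervals; filled orange points had an adjusted p under 0.05 in limma. The laminin chains and nidogens lie to the right of 0 in both junction panels, up to 3.56 for Lama2 in TA, while Sspn (-0.55 in EOM) and Itga7 (-0.48 in EOM) lie to the left.

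Between the muscles, the called members were all higher in EOM, and 2 of the 3 receptor genes were called in both regions. In fibre, 5 of the 10 members were called higher in EOM than in TA (Lama2, Lama4, Lamb2, Itga7 and Sspn) and 0 lower, against 15.6% of all genes, 8.4% higher and 7.15% lower. At the junction, 3 were called higher in EOM (Lama4, Itga7 and Sspn) and 0 lower, against 16.4%, 7.82% higher and 8.61% lower. At an unadjusted p under 0.05 limma gave 8 members higher in fibre and 5 at the junction, and 0 lower in either. The median member difference was 0.82 in fibre and 0.33 at the junction, beside 0.03 and 0.01 over all genes. Without rat 25 the fibre count was 3, and without rat 27 the junction count was 0. At the junction it was 1 without EOM_synapse 27, EOM_synapse 29, TA_synapse 27 or rat 29, and 2 without any 1 of 9 other arrays.

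Sspn, sarcospan, separated the muscles in both regions. The EOM values were 11.04, 10.81, 11.09 and 11.11 in fibre and 10.43, 10.39, 10.65 and 10.38 at the junction. The TA values were 9.43, 9.62, 10.08 and 9.88 in fibre and 9.46, 9.50, 9.75 and 10.00 at the junction. All EOM arrays lay above all TA arrays, and within EOM all fibre arrays lay above all junction arrays. EOM exceeded TA by 1.26 ± 0.17 in fibre (2.4-fold, adjusted p = 0.000282, called under all 34 alternatives) and by 0.78 ± 0.17 at the junction (1.72-fold, adjusted p = 0.00651). The junction call was lost without rat 27 (adjusted p = 0.0534) and with the mean of the probe sets (0.45, adjusted p = 0.118), over a range of 0.00117 to 0.118. The EOM junction differed from EOM fibre by -0.55 ± 0.17 (adjusted p = 0.0579), and the TA junction from TA fibre by -0.07 ± 0.17 (0.855). The 3 other probe sets of Sspn gave -1.08 ± 0.21, -0.95 ± 0.28 and -0.89 ± 0.23 for the EOM junction (adjusted p = 0.00642, 0.0554 and 0.0322 over all probe sets). With the mean of the probe sets, Sspn was lower at the EOM junction by -0.87 and called (adjusted p = 0.00894). For the muscle difference at the junction these probe sets disagreed, at -0.10, 0.35 and 0.77 (adjusted p = 0.817, 0.46 and 0.0432).

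Itga7 encodes the alpha subunit of the main laminin-binding integrin of adult muscle. In EOM it stood at 8.77, 8.41, 8.58 and 8.13 in fibre and at 7.98, 8.46, 7.86 and 7.68 at the junction. In TA it stood at 7.71, 7.53, 7.58 and 7.42 in fibre and at 7.53, 7.34, 7.05 and 7.54 at the junction. EOM lay above TA without overlap in each region. The difference was 0.91 ± 0.20 in fibre (1.88-fold, adjusted p = 0.00773) and 0.63 ± 0.20 at the junction (1.55-fold, adjusted p = 0.0471). The fibre call was lost without rat 15 (adjusted p = 0.0539) and with the probe set of largest variance (0.58, adjusted p = 0.241), a fall of more than 1.5 times. The junction call was lost under 22 of 34 alternatives (adjusted p up to 0.215). Among these were leaving out EOM_fiber 27, TA_fiber 15, 27 or 29, any EOM_synapse array, TA_synapse 15, 25 or 27, or any rat, and the fit without the rat block (0.0545). Between junction and fibre Itga7 differed by -0.48 ± 0.20 in EOM (adjusted p = 0.158) and -0.20 ± 0.20 in TA (0.617). Its other probe set past the filter gave 0.09 ± 0.30 in EOM and -0.15 ± 0.30 in TA (limma adjusted p = 0.904 and 0.841 over all probe sets). The 2 probe sets thus differed in sign in EOM.

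Dag1 encodes dystroglycan, whose alpha part binds laminin through its sugar chains. The EOM values were 10.23, 10.65, 10.24 and 10.30 in fibre and 10.68, 10.41, 11.00 and 10.80 at the junction. The TA values were 9.76, 9.54, 9.50 and 9.71 in fibre and 10.12, 10.29, 8.96 and 10.32 at the junction, where TA_synapse 27 was far below the others. EOM lay above TA without overlap in each region, but neither difference passed the threshold: 0.73 ± 0.27 in fibre (adjusted p = 0.0793) and 0.80 ± 0.27 at the junction (0.0546). Without TA_synapse 27 the fibre difference was 0.73 with an adjusted p of 0.0208, and without EOM_synapse 25 the junction difference was 0.97 with one of 0.046. The junction difference was also called with the mean of the probe sets (0.86, limma adjusted p = 0.012) and a pseudocount of 64 (0.0155). A trended, robust prior (0.0138), stricter filters (0.0375 and 0.0424) and a random rat block (0.0409) called it too. The pseudocount of 64 (0.0295) and that prior (0.0263) also called the fibre difference. The other alternatives called neither. The other Dag1 probe set past the filter differed at the junction by 0.91 ± 0.21 (adjusted p = 0.0109) and in fibre by 0.41 ± 0.21 (0.224). The junction differed from fibre by 0.37 ± 0.27 in EOM (adjusted p = 0.426) and 0.29 ± 0.27 in TA (0.563).

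Counted by overlap, 6 members lay wholly higher in EOM_fiber than in TA_fiber (8.39% of all genes did) and 4 wholly higher in EOM_synapse than in TA_synapse (11% did). At the junction against fibre, 6 members were wholly higher in TA (7.62% of all genes, with 5.61% wholly lower) and 4 in EOM (8.19%), with 1, Sspn, wholly lower in EOM (8.92%).

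**Figure D3:**
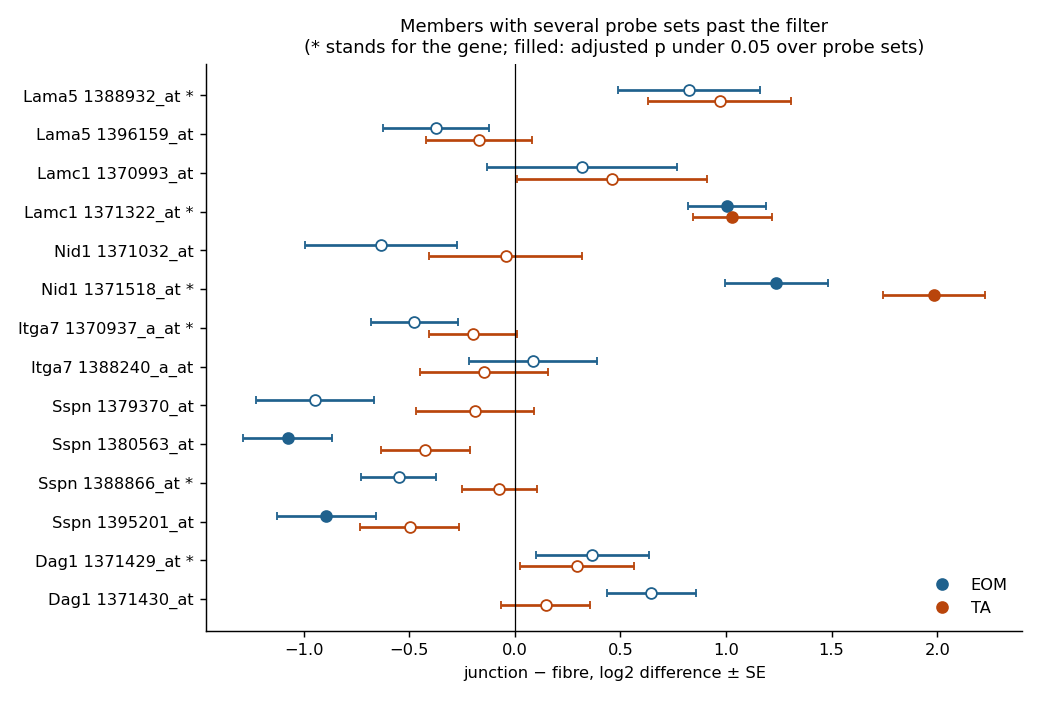
Junction minus fibre difference (log2 ± SE) of every probe set past the filter for the 6 members that had more than 1; blue points are EOM, orange points TA, an asterisk marks the probe set that stands for the gene, and filled points had an adjusted p under 0.05 over 13647 probe sets. The Nid1 probe sets disagree (1.24 and -0.64 in EOM), while the 4 Sspn probe sets all lie below 0 in EOM.

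No member passed the test for a difference between rats, and the values by rat are given as a description. Rats 27 and 29 both lay above rats 15 and 25 in all 4 groups for Lama2, Lamc1 and Nid1, a pattern noticed after the values were seen and shown by 1.03% of all genes, with 0.941% in the opposite direction. They did so in 3 of 4 groups for Lama5, Nid2 and Sspn, in 2 for Lama4, in 1 each for Lamb2 and Dag1 and in none for Itga7, and 5.24% of all genes did so in at least 3. Averaged over the groups, rats 27 and 29 exceeded rats 15 and 25 by 1.03 for Nid1, 0.78 for Lama5, 0.77 for Nid2, 0.70 for Lamc1, 0.66 for Lama4 and 0.60 for Lama2. The value was 0.28 for Sspn, -0.10 for Dag1, -0.20 for Lamb2 and -0.24 for Itga7, and the median over all genes was -0.02. In the F test for any difference between rats, 0.173% of all genes were called and 0 of the 10 members, with adjusted p from 0.0761 (Nid1) to 0.784 (Dag1); at an unadjusted p under 0.05 the limma F test gave 5 members (Lama2, Lama5, Lamc1, Nid1 and Nid2). Whether the numbers also mark a processing batch was not tested.

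**Figure D4:**
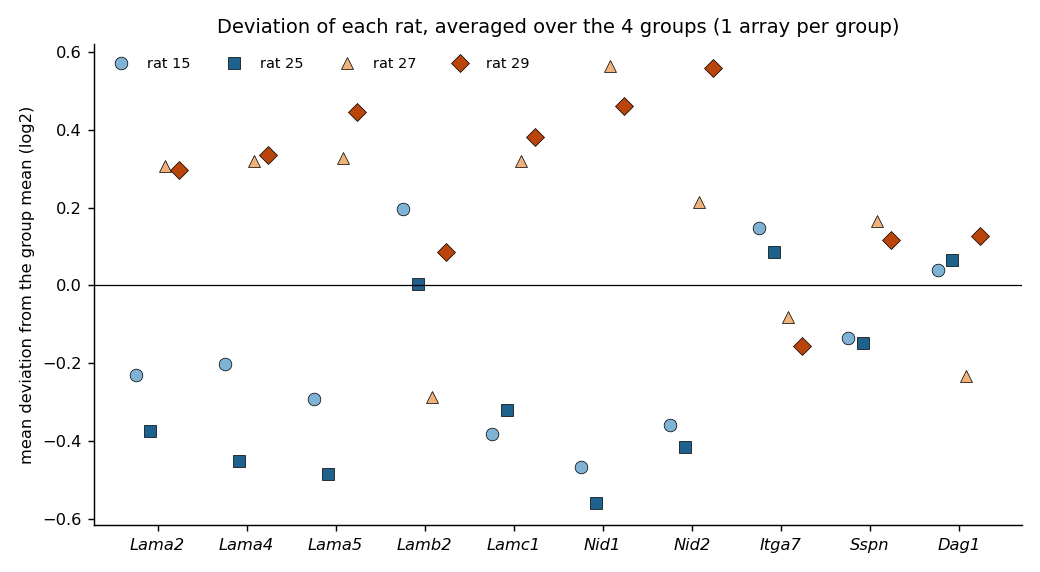
Deviation of each rat from the group mean, in log2 units averaged over the 4 groups (1 array per group), for the 10 members; shapes and colours are the rats. For Nid1 the rats lie at -0.47, -0.56, 0.56 and 0.46 in the order 15, 25, 27 and 29, while for Itga7 all 4 lie within 0.16 of 0.

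Over the 16 arrays the members resembled each other and a few other genes, given here as Pearson r and Spearman rho with no test, since the arrays share 4 group levels and 4 rats. Nid2 was most like Lamc1 (r = 0.938, rho = 0.938) and Nid1 (0.922, 0.885), and Nid1 was most like Lamc1 (0.937, 0.956). Lama2 was most like Scara5 (0.977, 0.935), a scavenger receptor gene, then the receptor subunit gene Chrna1 (0.969, 0.847) and Abi3bp (0.963, 0.856). Lama4 was most like Reln (0.957, 0.938), which encodes the secreted glycoprotein reelin, and Lamc1 like Fam114a1 (0.963, 0.965). Lamb2 was most like Slc2a13 (0.932, 0.835). Among the receptors, Itga7 was most like Tgm2 (0.932, 0.944), a transglutaminase gene, and Sspn like Eno1 (0.959, 0.921), a glycolytic enzyme gene, and Mybphl (0.946, 0.903).

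Other genes of the same structures were read from 6 lists. Of the 9 genes listed as other laminin and nidogen-like chains, 5 were tested (Lamb1, Lamb3, Lamc3, Smoc1 and Smoc2). Lamb1, the beta chain outside the cleft, was higher at the junction by 2.01 ± 0.27 in TA (adjusted p = 0.000284) and 1.18 ± 0.27 in EOM (0.0145, lost without EOM_synapse 25 at 0.06). Smoc2, a secreted matrix protein gene, was higher by 2.95 ± 0.22 in TA (adjusted p = 1.12e-06) and 1.75 ± 0.22 in EOM (0.000225). Lamb3 was higher in EOM than in TA in fibre (1.88 ± 0.35, adjusted p = 0.00246) and at the junction (2.13 ± 0.35, 0.000922). Within TA it was lower at the junction (-1.25 ± 0.35, adjusted p = 0.0339), a call lost without TA_fiber 15, 25 or 29 or TA_synapse 15, 25 or 29 (0.0736 to 0.131). Of the 5 genes tested, Smoc1 and Smoc2 included, 2 were called higher and 1 lower at the TA junction by limma. At the EOM junction 2 were called higher and 0 lower (1 lower at an unadjusted p under 0.05). The 2 higher in each muscle were Lamb1 and Smoc2. The median junction difference of the 5 genes was -0.44 in TA and -0.12 in EOM. Lama1 and Lama3 did not pass the filter. Of the 10 basement membrane genes tested, 4 were higher at the TA junction, among them Col15a1 (2.56 ± 0.30, adjusted p = 7.18e-05), and 3 at the EOM junction, among them Agrn, which encodes agrin (1.53 ± 0.30, 0.00566), with none lower. Frem2, also among these 3, passed the filter only through the EOM_synapse arrays, the group where it was high. Its direction at the EOM junction was therefore set by the filter, and its call adds nothing to the count. The TA count was 3 to 6 and the EOM count 1 to 4 on leaving out single arrays.

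In the list of laminin-binding integrins, other receptors and their partner proteins, 13 genes were tested. Of these, 3 were higher and 1 lower at the TA junction, and 5 higher and 1 lower at the EOM junction. Itgb1, the beta 1 partner of integrin alpha 7, was higher by 1.10 ± 0.18 in TA (adjusted p = 0.0015) and 0.85 ± 0.18 in EOM (0.00964). Itgb1bp2, which encodes melusin, was higher in EOM than in TA by 1.75 ± 0.21 at the junction (adjusted p = 9.24e-05) and 1.21 ± 0.21 in fibre (0.00166), and was the gene lower at the TA junction (-1.03 ± 0.21, 0.00629). In the dystrophin-associated complex 6 of 15 genes were tested, with Dmd below the filter, and 2 were higher at the TA junction, while 2 were higher and 1 lower at the EOM junction. Sgca, which encodes alpha-sarcoglycan of the complex that holds sarcospan, was the lower one (-0.86 ± 0.19, adjusted p = 0.0127), and its TA difference was -0.09 ± 0.19 (0.848); the test of the difference between the muscles gave -0.77 ± 0.27 (adjusted p = 0.284). Utrn, utrophin, was higher by 1.05 ± 0.26 in TA (adjusted p = 0.0216, lost without TA_fiber 25 or 29 or TA_synapse 15 or 25 at 0.0602 to 0.084) and 0.88 ± 0.26 in EOM (0.0498, lost without 14 of the 16 arrays, up to 0.168). Dtna, alpha-dystrobrevin, was higher at both junctions (0.98 in TA and 1.25 in EOM, adjusted p = 0.0062 and 0.00136) and lower in EOM than in TA fibre (-1.74, adjusted p = 8.36e-05). Of 11 genes for the sugar chains of dystroglycan, 0 were called by limma in TA between junction and fibre (1 at an unadjusted p under 0.05) and 1 (Pomgnt2, lower) in EOM, a call lost without 7 of the 16 arrays (adjusted p up to 0.112). Of 13 adhesion linkers, 3 were higher at the TA junction, led by Parva (1.68, adjusted p = 0.00141), and 1 (Plec) was lower at the EOM junction, a call lost without EOM_synapse 27 (0.0544).

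Markers of other cells moved with the same comparisons. Of 8 Schwann cell markers tested, 7 were higher at the junction in each muscle, with medians of 2.38 in TA and 2.34 in EOM. Their summed intensity was 528 to 812 in TA_fiber, 3509 to 5713 in TA_synapse, 1843 to 2769 in EOM_fiber and 7419 to 12670 in EOM_synapse. Of 12 fibroblast markers, 7 were higher and 0 lower at the TA junction, 5 higher and 1 lower at the EOM junction, and 10 higher and 0 lower in EOM_fiber than in TA_fiber, with summed intensity of 2874 to 9015 in TA_fiber, 12550 to 24050 in TA_synapse, 8537 to 27980 in EOM_fiber and 19070 to 34550 in EOM_synapse. The 11 genes of junctional nuclei also had 7 higher and 0 lower in EOM_fiber than in TA_fiber, and 9 higher at the junction in each muscle. The part of these cells in the differences of Lama2, Lama4, Lamb2, Lamc1, Nid1 and Nid2 was not tested. Between EOM_fiber and TA_fiber, 5 of 10 macrophage markers were higher in EOM and 0 lower (median 1.14), as were 3 of 8 Schwann cell markers (median 0.81; 0 lower) and 3 of 13 endothelial markers (median 0.61; 0 lower, 1 to 4 higher on leaving out single arrays). Summed intensity of the macrophage markers was 1604 to 2843 in EOM_fiber and 758.4 to 1249 in TA_fiber, and that of the endothelial markers 4054 to 5553 and 2495 to 3198. Their part in the higher Lama2, Lama4, Lamb2, Itga7 and Sspn of EOM_fiber was not tested. Between junction and fibre, most called endothelial markers were lower at the junction, with 4 of 13 lower and 1 higher at the TA junction and 6 lower and 1 higher at the EOM junction. The higher one was Plvap, by 5.65 ± 0.37 in TA (limma adjusted p = 3.55e-07) and 2.55 ± 0.37 in EOM (0.000727). With Plvap included, summed endothelial intensity was 3083 to 4512 in TA_synapse, beside 2495 to 3198 in TA_fiber. It was 2261 to 3419 in EOM_synapse, beside 4054 to 5553 in EOM_fiber. On leaving out single arrays the count of lower endothelial markers was 1 to 5 in TA and 2 to 7 in EOM, and that of higher fibroblast markers at the EOM junction 3 to 5. Muscle fibre markers summed to 185400 to 260500 in EOM_fiber and 101100 to 142100 in EOM_synapse, beside the lower Sspn of EOM_synapse, and to 229600 to 405600 in TA_fiber and 180100 to 264100 in TA_synapse. Their part in the values of Sspn was not tested. Of 11 muscle fibre markers, 0 were higher and 3 lower in EOM_fiber than in TA_fiber. In EOM_synapse against TA_synapse, 0 were higher and 5 lower. In that junction comparison Schwann cell markers had 3 higher and 0 lower, and fibroblast markers 4 higher and 1 lower. Endothelial markers had 1 higher and 1 lower there, and macrophage markers 0 and 0. The part of these cells in the higher Lama4, Itga7 and Sspn of EOM_synapse was not tested.

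**Figure D5:**
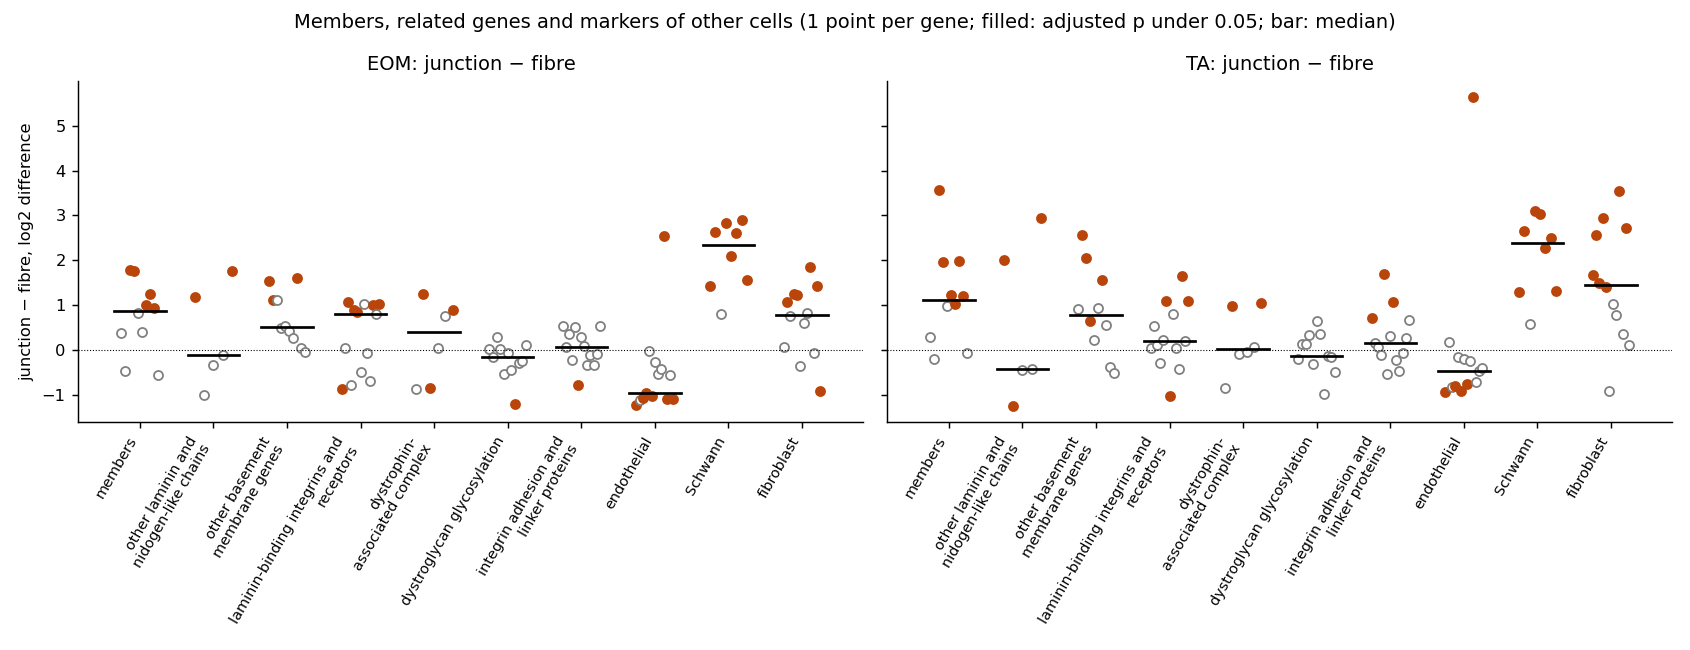
Junction minus fibre difference (log2) in EOM (left) and TA (right) of the 10 members and of 9 gene lists, 1 point per gene tested; filled points had an adjusted p under 0.05 in limma and bars are medians. The member medians are 0.88 and 1.11, those of the Schwann list 2.34 and 2.38, and those of the endothelial list -0.96 and -0.47.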

How the data were processed

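Deposited intensity is linear and was scaled by the authors to an equal 2% trimmed mean, as read from the values; no source used here names the summarising software. Per the labels' protocols, RNA was amplified over 2 rounds with 600 ng of amplified RNA entering the second round. Here log2(intensity + 16) was quantile normalized without the 57 control probe sets. Names came from the array annotation (20826 probe sets with 1 gene, 436 with several, 9780 unlisted), and 4 members had no matched promoter. Probe sets above the array median on 4 or more arrays were kept. The fit (limma 3.58.1, R 4.3.3) had 4 group means over 16 arrays, the rat as fixed block and 5 contrasts. Same-numbered arrays correlated, after group means were removed, with a mean r of 0.112 (-0.0666 to 0.245, 16 of 24 pairs over 0.1); the pairing rests on the titles. The steps were tested on simulated data. Alternatives covered the block, arrays, prior, normalization, filters, pseudocount and probe set choice, and leaving out each array, each rat and, chosen after seeing the data, the 3 arrays of highest median. Members, lists and tests were chosen with earlier results of these data known. Named genes are all members, up to 4 called genes of a list and contrast (not all printed) and the 3 genes most like each called member.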

Additional observations from a re-analysis of the deposited data

Results flagged for a closer look

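In a scan of 40 sets of 4 arrays (10 members in 4 groups), 4 sets had 1 array standing apart by Dixon's 95% limit, where about 1 in 20 is flagged by chance. Lama5 in EOM_fiber 15 was at 4.81, with the other rats at 5.99 to 6.11. Sspn in EOM_synapse 27 was at 10.65, with the others at 10.38 to 10.43. Dag1 in EOM_fiber 25 was at 10.65, with the others at 10.23 to 10.30. Dag1 in TA_synapse 27 was at 8.96, with the others at 10.12 to 10.32. EOM_fiber 15 and TA_synapse 27 were among the 3 arrays of highest median intensity, and whether this bears on the values was not tested. Lama2 was flagged because its junction difference differed between the muscles, by -1.78 (limma interaction, adjusted p = 0.0407, negative in 4 of 4 rats).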

How the results depend on the processing

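Over 34 alternatives, the 20 called member differences kept their call in 587 of 679 refits and lost it in 92, with 0 reversed; 26 of 1011 refits of uncalled differences gained one. The fibre comparison between muscles had 5 members called, 2 with only its own arrays, and 3 to 6 with an array or rat left out. The junction comparison had 3, 1 without the replicate block, 0 with median-centred arrays, and 0 to 3 with an array or rat left out. The EOM junction against fibre had 5, 3 without the replicate block, and 4 to 5 with an array or rat left out; for TA this range was 5 to 6. The interaction had 1, and 0 without the block, with the rat as a random block, with median-centred arrays, without the filter, with a pseudocount of 1, with the probe set of largest variance, and without the 3 arrays of highest median, and 0 to 1 with an array or rat left out. The causes of these changes were not tested. The fit to a contrast's own arrays has fewer samples. The fit without the block ended no calls beyond those given in the report, and leaving out the filter tests more genes. Over all genes, counts ranged from 582 to 1953 (1620 as reported) for the fibre comparison, 947 to 2136 (1712) at the junction, 491 to 1461 (1055) in EOM, 602 to 1309 (1066) in TA and 23 to 218 (96) for the interaction. Median centring moved the median of all genes by 0.12 for the EOM junction and 0.13 for the interaction. Scaling turned the sign of 2 uncalled differences, Lama5 in fibre (-0.12, 0.02 as deposited) and the Lamc1 interaction (-0.03, 0.04 median centred). The number of arrays limits the precision.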
